A study of Mus musculus with 18 samples.

Results

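Hmga2 and the oncofetal RNA-binding genes Igf2bp1, Igf2bp3 and Lin28b were followed across normal lung and lung tumours of mice. Each gene was read from probe sets that the array's annotation assigned to 1 symbol, and of several the one brightest on average across the 18 arrays stood for the gene, a choice that used no group. Of 5 genes listed, 4 had such a probe set, out of 18193 genes measured in all. Igf2bp2 was not analysed here. The 4 genes had 15 probe sets between them, 4 for Hmga2, 4 for Igf2bp1, 6 for Igf2bp3 and 1 for Lin28b. The genes themselves were chosen by their measured levels in these arrays, above all the Hmga2 level of 2 spontaneous tumours, so the levels below are a description, and the p-values are those of the fit over all genes.

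The study measured RNA on oligonucleotide arrays from 6 spontaneous lung tumours, 6 lung tumours of cobalt-exposed mice and 6 control lungs. The animals were B6C3F1/N hybrid mice, with no transgene or engineered allele named. Spontaneous tumours are labelled only as spontaneous and control lungs as vehicle controls, and the study's unexposed group inhaled 0 mg/m3. Cobalt tumours came from mice that inhaled cobalt metal aerosol at 1.25, at 2.5 and at 5 mg/m3. Exposure began at 5 to 6 weeks of age and lasted 6 h a day, 5 days a week, for up to 105 weeks. Neither dose nor sex is recorded for single samples, and nothing states that each array stands for its own animal. The p-values therefore measure the spread between these arrays, which may be technical. Both tumour groups were dissected from lung and are mixtures of cells, so that fewer cells of a type and less RNA per cell cannot be told apart.

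High mobility group AT-hook 2 (Hmga2) is a small chromatin protein that bends AT-rich DNA. It is abundant in the embryo, almost silent in adult tissue and expressed again in many tumours. In mouse lung adenocarcinoma it marks poorly differentiated cells that have lost the lung transcription factor Nkx2-1. Its messenger RNA is a classical target of the let-7 microRNAs. LIN28B binds let-7 precursors and blocks their maturation, and the IGF2BP proteins bind and stabilise messenger RNAs, among them those of Myc and Igf2. Messages of Hmga2, Lin28b and the Igf2bp genes carry let-7 sites, so the group is known as a let-7-governed fetal programme.

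The let-7 family joins the members, and its sequences are shown because the shared seed is what defines that link. The mature sequences from RefSeq (GRCm38.p6) follow, 5′ to 3′, with the seed, bases 2 to 8, in capitals. The 5 lines are 4 family members with the common seed and the 1 member whose seed differs.
mmu-let-7a-5p: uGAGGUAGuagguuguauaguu
mmu-let-7d-5p: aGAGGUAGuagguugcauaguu
mmu-let-7g-5p: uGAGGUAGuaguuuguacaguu
mmu-miR-98-5p: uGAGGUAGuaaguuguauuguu
mmu-let-7j: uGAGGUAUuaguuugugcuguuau
Of 11 family names in the table, 10 carried the seed GAGGUAG and 1, let-7j, carried GAGGUAU. The arrays did not measure mature let-7, so no level is given for any of them.

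The promoter of Hmga2 is shown because Hmga2 is the member with the widest range across arrays. In GRCm38.p6 the gene spans chr10:120361268-120476469 on the minus strand. The RefSeq window from 250 bases before to 50 after the start site, chr10:120476420-120476719, reads as follows on the gene's strand, with the GC box in capitals.
Hmga2 promoter: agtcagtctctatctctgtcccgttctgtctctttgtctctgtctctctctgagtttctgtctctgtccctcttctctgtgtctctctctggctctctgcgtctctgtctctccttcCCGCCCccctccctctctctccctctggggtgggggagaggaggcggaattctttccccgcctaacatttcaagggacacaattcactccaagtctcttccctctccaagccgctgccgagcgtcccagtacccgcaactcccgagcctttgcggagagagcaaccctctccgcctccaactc
The window held 1 GC box (GGGCGG, here as CCGCCC on the printed strand), whose first base lay at -133 from the start site. Of all promoter windows of the same length, 35.7% held that motif. Searched on both strands, the letters of a CCAAT box (CCAAT, in 37.4% of windows), of a TATA box (TATAAA, in 13.6%), of an NK-2 homeodomain motif (CAAGTG, in 13.6%) and of an E-box (CACGTG, in 7.15%) were not in the window. C and T together made up 69.0% of the bases, a pyrimidine share reached by 0.41% of 32851 windows, with a median over windows of 49.7%.

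Arrays were close to each other in scale, with array medians between 6.32 and 6.45 on the log2 scale and values between 3.34 and 15.26. Control lung 6 carried a free-text description that named a spontaneous tumour. Its title, source and group gave control lung, and its mean correlation with the other control lungs was 0.9894, so it was kept as control lung. Cobalt tumour 6 correlated more closely with control lungs (mean r = 0.9712) than with the other cobalt tumours (0.9533). Xist, the RNA of the inactive X chromosome, was between 12.15 and 12.72 in control lungs. Low Xist with high Y-linked RNA was found in spontaneous tumours 1, 2, 3 and 5, in cobalt tumours 1 and 4 and in no control lung. The 3 groups thus differ in these sex-linked RNAs, and the group comparisons below carry this imbalance. Markers of lung were present on every array: Sftpc, the surfactant gene of alveolar type 2 cells, stood at 14.27 and 14.70 in spontaneous tumours 2 and 6 and between 14.83 and 14.95 in control lungs. The mean of 9 alveolar type 2 markers lay between 12.41 and 13.93 in spontaneous tumours, between 13.5 and 13.64 in cobalt tumours, and between 12.84 and 13.1 in control lungs.

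Hmga2 was very high in 2 of the 6 spontaneous tumours. Its level (log2) in spontaneous tumours 1 to 6 was 5.74, 11.41, 6.12, 6.56, 6.09 and 11.09. In cobalt tumours 1 to 6 it was 6.19, 6.94, 6.15, 6.25, 7.12 and 6.25. In control lungs 1 to 6 it was 5.92, 5.80, 6.05, 6.08, 5.87 and 5.86. Spontaneous tumours 2 and 6 thus stood apart from all other arrays. Cobalt tumours were all above the highest control lung by a small margin, and spontaneous tumour 1 was below the lowest.

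Against the mean of the control lungs, spontaneous tumour 2 was 44.7-fold and spontaneous tumour 6 was 35.8-fold higher in Hmga2. The next tumours were cobalt tumour 5 at 2.29-fold, cobalt tumour 2 at 2.01-fold and spontaneous tumour 4 at 1.55-fold. The range over the 18 arrays, 5.67 on the log2 scale, was at percentile 99.1 of all gene ranges, whose median was 1.0.

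**Figure D1:**
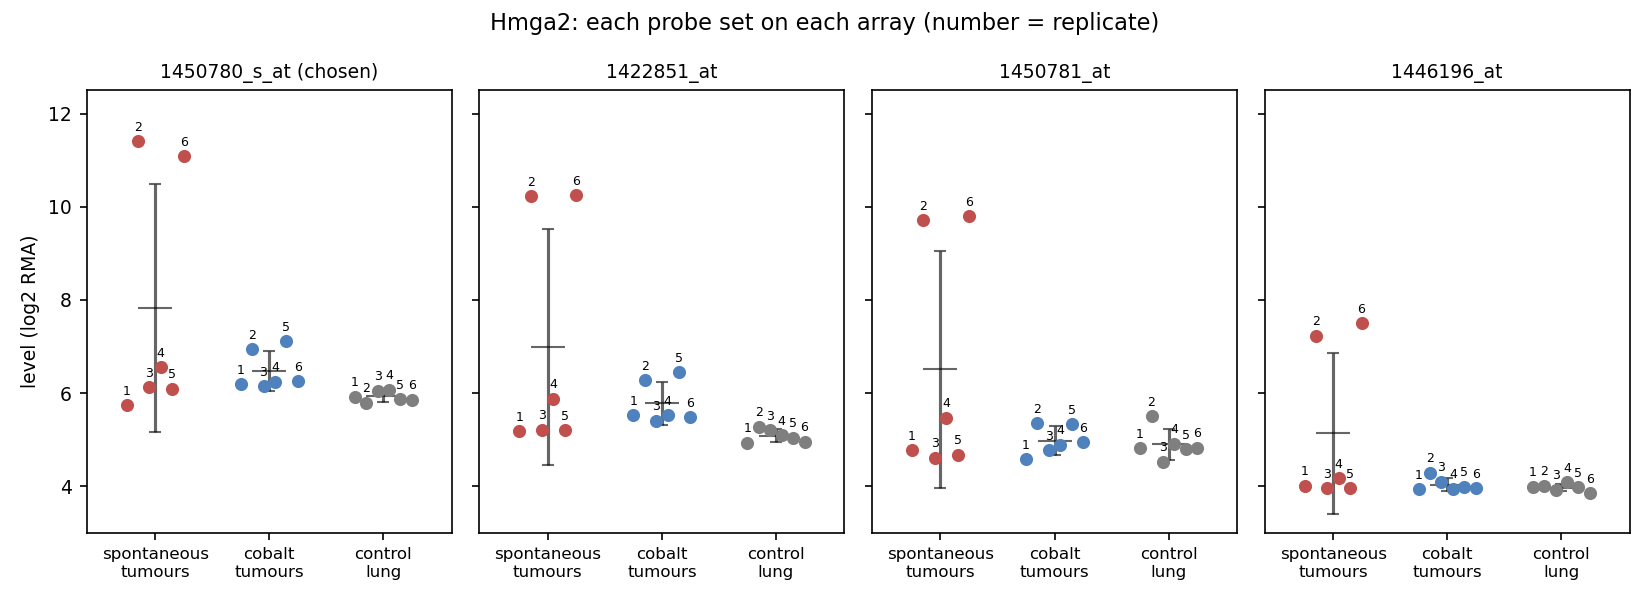
Level of Hmga2 (log2 RMA, vertical axis) by each of its 4 probe sets, one panel per probe set, on each array of spontaneous tumours, cobalt tumours and control lungs. Points are arrays numbered by replicate, and bars are the mean and SD (n = 6); spontaneous tumours 2 and 6 stand above all other arrays in every panel.

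All 4 Hmga2 probe sets gave the same 2 tumours. Probe set 1422851_at read 10.23 and 10.25 in spontaneous tumours 2 and 6, against 4.94 to 5.28 in control lungs, which is 35.4-fold and 35.8-fold over the control mean. Probe set 1450781_at read 9.72 and 9.80, against 4.53 to 5.51 in control lungs (28.2-fold and 30.0-fold). Probe set 1446196_at, designed on another accession than the other three, read 7.23 and 7.50, against 3.85 to 4.09 in control lungs (9.60-fold and 11.5-fold). The pairwise correlation of the 4 probe sets over the 18 arrays lay between 0.974 and 0.996, a description of arrays that these 2 tumours dominate. The annotated pseudogene Hmga2-ps1 read 8.02 and 7.03 in these tumours and between 6.05 and 6.55 in control lungs, but cobalt tumours 4 and 5 also read 7.03 and 6.89. Its probe set could share sequence with Hmga2 and is not an independent measure.

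As a group, spontaneous tumours averaged 7.83 ± 2.66 in Hmga2 and control lungs averaged 5.93 ± 0.11 (SD, n = 6 each). The difference was 1.91 on the log2 scale (SE 0.84, 95% interval 0.14 to 3.67), or 3.75-fold, and it did not pass the threshold of 0.05 (limma, adjusted p = 0.0884 over all genes). Without spontaneous tumour 1 the difference was 2.33 and passed (limma, adjusted p = 0.0416). Without spontaneous tumour 2 it was 1.19 (adjusted p = 0.198), without tumour 6 it was 1.26 (adjusted p = 0.207), and without both it was 0.2 (adjusted p = 0.472, limma). On the arrays with Xist above 10, a setting chosen after the data were seen, it was 2.9 (limma, adjusted p = 0.0234). The only spontaneous tumours in that setting were tumours 4 (Xist 12.78) and 6 (Xist 12.4). That value thus rests on tumour 6, with Hmga2 at 11.09 against 6.56 in tumour 4. Spontaneous tumour 2 had low Xist (5.95) and Y-linked RNA (Kdm5d 7.84), and spontaneous tumour 6 had high Xist (12.4) and no more Kdm5d (3.7) than control lungs. The highest Hmga2 levels thus occurred once with each pattern.

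Cobalt tumours averaged 6.48 ± 0.43 in Hmga2 and control lungs averaged 5.93 ± 0.11 (SD, n = 6 each). The difference was 0.55 on the log2 scale (SE 0.84, 95% interval -1.21 to 2.32), or 1.47-fold, and did not pass in the fit over all 18 arrays (limma, adjusted p = 0.661). That fit takes 1 spread from all groups, the 2 high spontaneous tumours included. In a fit of only the 12 arrays compared, the same difference had an SE of 0.17 and passed, as did 36.5% of all genes there (limma, adjusted p = 0.0214). An exact two-sided permutation test gave p = 0.00216, the smallest it can give, and adjusted p = 0.0115 over all genes, of which 35.2% passed that test. The cobalt and control groups did not overlap, with Hmga2 higher in all 6 cobalt tumours, and of all genes 8.1% were higher without overlap in that comparison. By probe set 1422851_at all 6 cobalt tumours were also above every control lung (5.41 to 6.45 against 4.94 to 5.28). The other 2 probe sets overlapped, with 1450781_at at 4.58 to 5.36 in cobalt tumours and 4.53 to 5.51 in control lungs, and differences of 0.08 and 0.06 for 1450781_at and 1446196_at.

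Between the tumour groups, Hmga2 averaged 6.48 ± 0.43 in cobalt tumours and 7.83 ± 2.66 in spontaneous tumours (SD, n = 6 each). The difference of -1.35 (SE 0.84, 95% interval -3.12 to 0.41) did not pass (limma, adjusted p = 0.57). Without spontaneous tumours 2 and 6 its sign turned to 0.36 (limma, adjusted p = 0.509). Hmga2 levels of the other spontaneous tumours lay within or below the cobalt range. No difference between spontaneous and cobalt tumours as groups was thus shown for Hmga2.

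Igf2bp1, the first IGF2 messenger RNA-binding protein, stabilises Myc messenger RNA and is silent in most adult tissues. Its gene spans chr11:95957163-96005944 (GRCm38.p6). By the chosen probe set 1459825_x_at, levels (log2) in spontaneous tumours 1 to 6 were 6.16, 6.47, 6.33, 6.07, 6.36 and 6.52. In cobalt tumours 1 to 6 they were 6.89, 6.24, 6.29, 6.35, 6.33 and 6.33, and in control lungs 1 to 6 they were 6.41, 6.28, 6.46, 6.48, 6.38 and 6.58. The groups overlapped, and cobalt tumour 1 was the highest array.

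The other 3 Igf2bp1 probe sets gave another picture, in which 1 tumour was high. Probe set 1449210_at read 6.82 in spontaneous tumour 2, against 4.66 to 5.13 in control lungs, or 3.87-fold over the control mean. Probe set 1455223_at read 5.78 there, against 4.11 to 4.40 in control lungs (2.85-fold). Probe set 1418761_at read 6.79 there, against 5.70 to 6.26 in control lungs (1.89-fold). Spontaneous tumour 6, the other tumour with high Hmga2, was not high by these probe sets, at 4.84, 4.25 and 5.71. The 3 probe sets correlated with one another over the 18 arrays at r = 0.816 to 0.946, and with the chosen probe set at r = 0.001 to 0.183. These are descriptions over arrays that share tumour 2, and on this array design the suffix x_at marks a probe set whose probes can match several sequences.

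**Figure D2:**
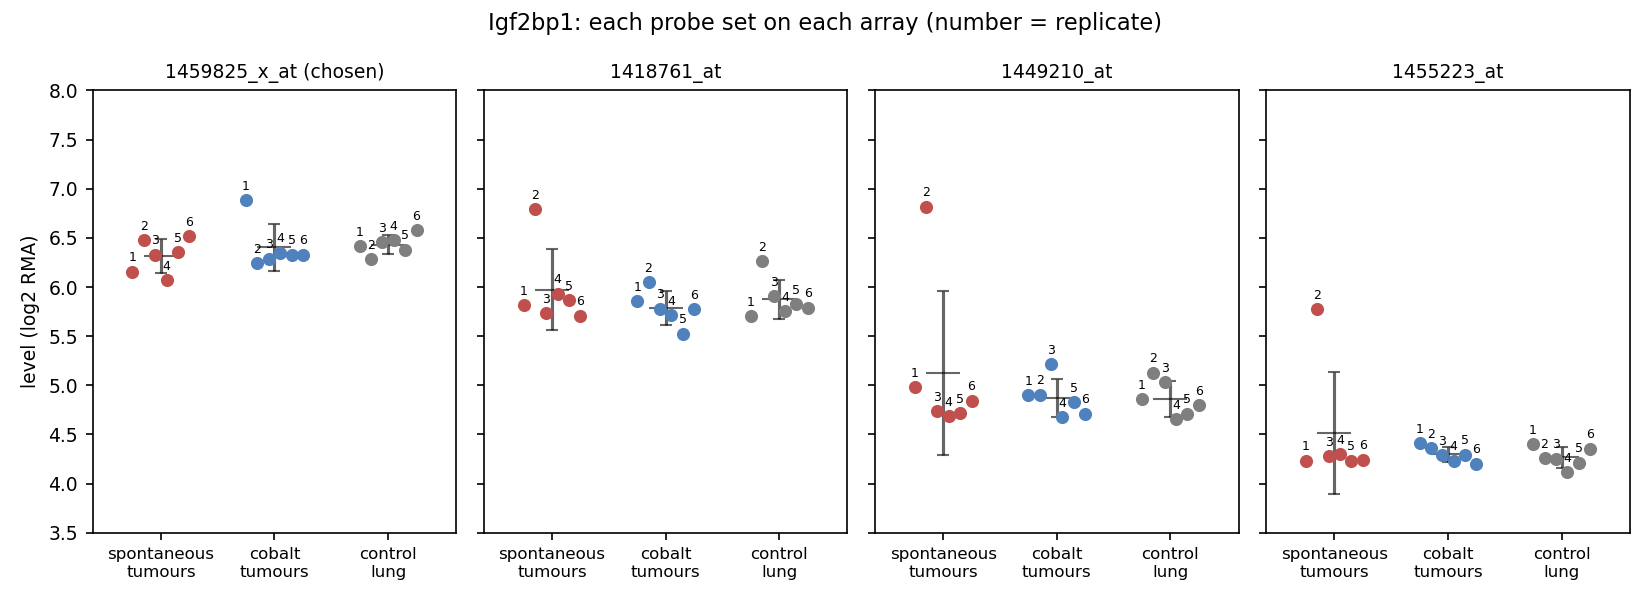
Level of Igf2bp1 (log2 RMA, vertical axis) by each of its 4 probe sets on each array of spontaneous tumours, cobalt tumours and control lungs. Points are arrays numbered by replicate, and bars are the mean and SD (n = 6); spontaneous tumour 2 is the highest array by 3 probe sets and lies within its group by the chosen one.

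Igf2bp1 by its chosen probe set averaged 6.32 ± 0.17 in spontaneous tumours and 6.43 ± 0.10 in control lungs (SD, n = 6 each). The difference was -0.11 (SE 0.11, 95% interval -0.34 to 0.11, limma, adjusted p = 0.429). Cobalt tumours averaged 6.40 ± 0.24, a difference of -0.03 from control lungs (limma, adjusted p = 0.874) and 0.09 from spontaneous tumours (adjusted p = 0.81). None of these passed, and with the mean of all 4 probe sets the spontaneous-to-control difference turned to 0.12.

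Igf2bp3, a further IGF2 messenger RNA-binding protein and a marker of aggressive carcinomas, spans chr6:49085218-49215469. By its chosen probe set, its level was 7.76, 7.95, 7.82, 7.51, 7.88 and 7.75 in spontaneous tumours 1 to 6. It was 8.0, 7.64, 7.82, 7.85, 7.78 and 7.74 in cobalt tumours and 7.82, 7.88, 7.74, 7.69, 7.99 and 7.79 in control lungs. The 3 groups overlapped throughout. Group means were 7.78 ± 0.15 in spontaneous tumours, 7.80 ± 0.12 in cobalt tumours and 7.82 ± 0.11 in control lungs (SD, n = 6 each). The differences were -0.04 for spontaneous tumours and -0.01 for cobalt tumours against control lungs, with limma adjusted p of 0.733 and 0.915.

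The 6 Igf2bp3 probe sets ranged over 0.32 to 0.71 on the log2 scale across arrays. By 1 of them, 1422611_s_at, cobalt tumours averaged 4.98 ± 0.18 and control lungs 5.26 ± 0.10 (SD, n = 6 each). That difference of -0.29 (SE 0.09) passed in the fit over all probe sets, of which 33.1% passed (limma, adjusted p = 0.0155), with 5 of 6 cobalt tumours below every control lung. The other 5 probe sets gave -0.11 to 0.16 and did not pass, so the Igf2bp3 probe sets differ in the result.

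Lin28b, which blocks let-7 maturation in embryonic and some tumour cells, spans chr10:45376617-45486314. Its single probe set read 3.64, 3.76, 3.65, 3.77, 3.73 and 3.67 in spontaneous tumours 1 to 6. It read 3.71, 3.69, 3.69, 3.76, 3.65 and 3.60 in cobalt tumours and 3.73, 3.67, 3.71, 3.78, 3.72 and 3.67 in control lungs. All arrays lay within 0.19 on the log2 scale, and the lowest value in the whole table was 3.34. Its mean was 3.70 ± 0.06 in spontaneous tumours, 3.68 ± 0.06 in cobalt tumours and 3.72 ± 0.04 in control lungs (SD, n = 6 each), with limma adjusted p of 0.857 and 0.64 against control lungs.

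**Figure D3:**
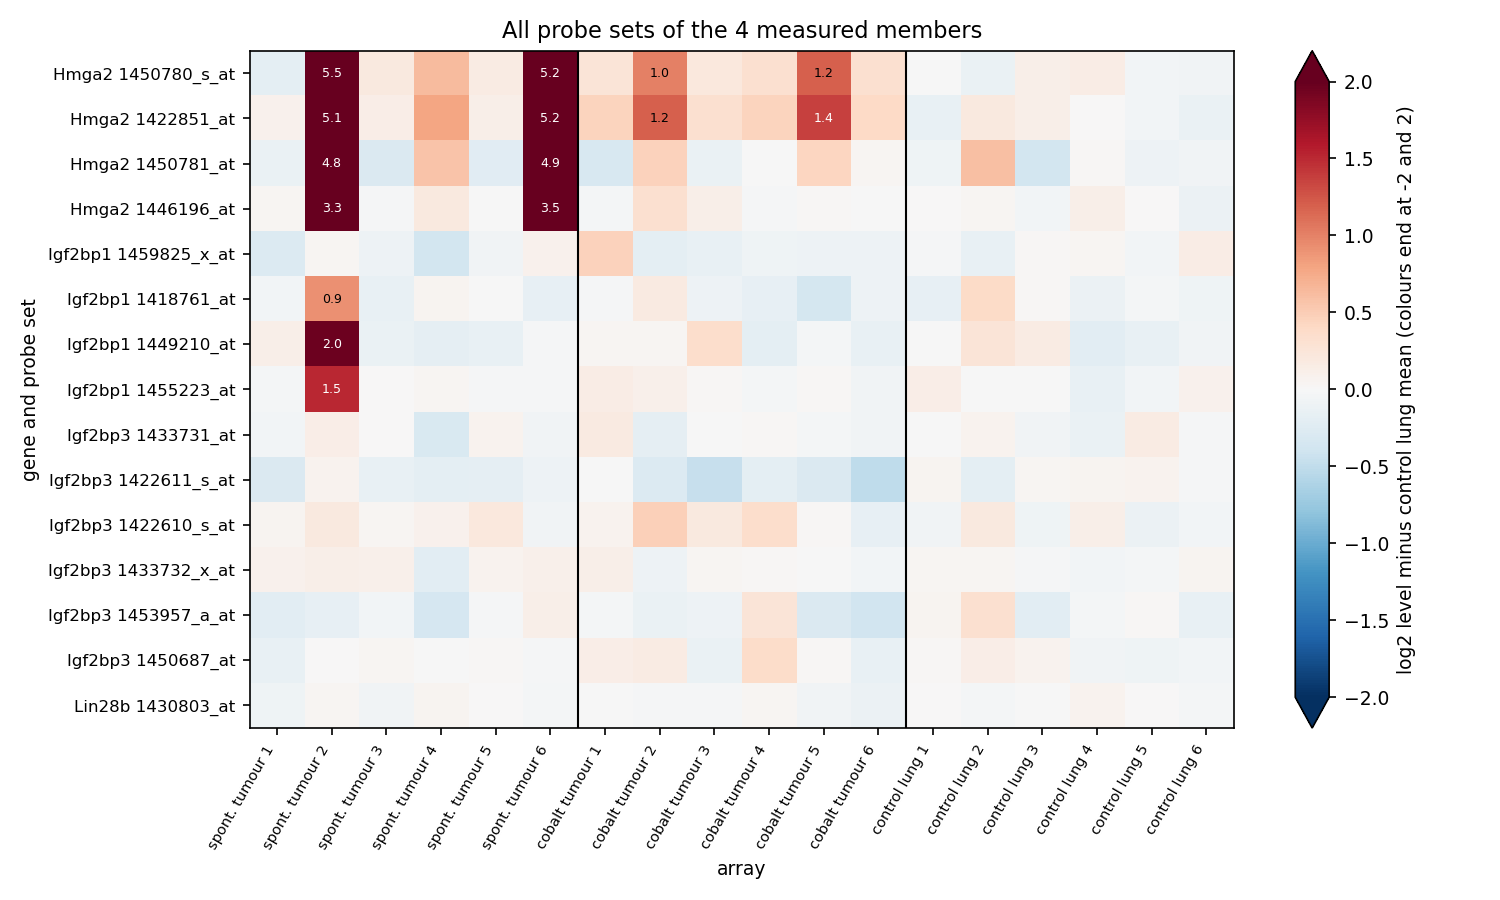
Each of the 15 probe sets of the 4 genes (rows) on each of the 18 arrays (columns, by group), coloured by its log2 difference from the mean of the control lungs. The strong colour lies in the Hmga2 rows of spontaneous tumours 2 and 6 and in 3 Igf2bp1 rows of spontaneous tumour 2.

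Across the 4 members, 0 of 4 passed in any of the 3 comparisons in limma's fit over all 18 arrays. For spontaneous tumours against control lungs 34.6% of all genes passed, and 1 member (Hmga2) had an unadjusted p under 0.05, as had 43.7% of all genes. For cobalt tumours against control lungs 34% of all genes passed and no member (0) had an unadjusted p under 0.05, against 42.6% of all genes. In that comparison the exact permutation test called 1 member, Hmga2, and 35.2% of all genes. For cobalt against spontaneous tumours 0.0824% of all genes passed, and 0 members had an unadjusted p under 0.05, against 11.6% of all genes. The permutation test called 0 members and 0 of all genes there, so it does not set the members apart.

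**Figure D4:**
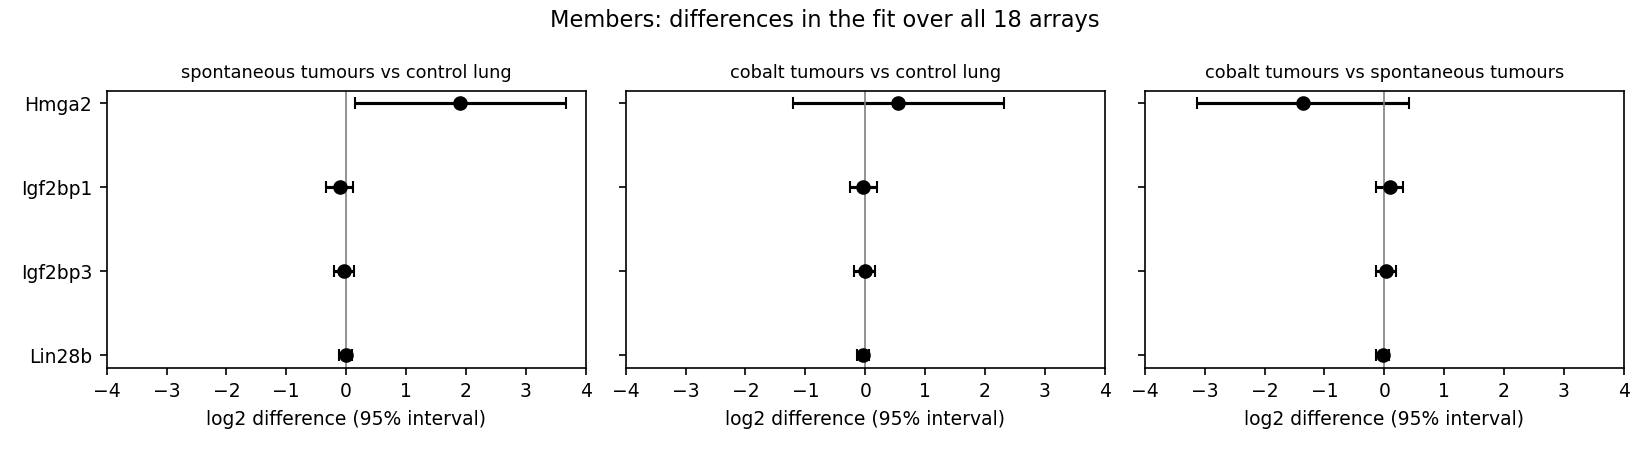
Log2 difference (horizontal axis) of each of the 4 members in the 3 comparisons, with its 95% interval from limma's fit over all 18 arrays. The interval of Hmga2 is the widest in every panel, and only its spontaneous-to-control interval, 0.14 to 3.67, lies wholly on one side of 0.

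Pairs of members were correlated across tumours. Since spontaneous tumours 2 and 6 form a separate cluster, correlations with Hmga2 were computed over the other 10 tumours, which leaves out the tumour that was high in both Hmga2 and, by 3 probe sets, Igf2bp1. Hmga2 gave r = -0.11 with Igf2bp1, -0.42 with Igf2bp3 and 0.06 with Lin28b, with permutation p adjusted over 6 pairs of 0.869, 0.682 and 0.869. Igf2bp1 and Igf2bp3, over 12 tumours, gave r = 0.76 (permutation p = 0.00618, adjusted 0.0371) and rho = 0.73 (permutation p = 0.00852, adjusted 0.0511). Without the 2 tumours farthest from the median of Igf2bp1 that r was 0.44, and with 1 tumour left out it was 0.7 to 0.81. Leaving out the 2 farthest tumours also narrows the range of Igf2bp1, which can lower r by itself. With the mean of all probe sets r was 0.34.

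Genes whose pattern over the 12 tumours was most like that of Hmga2 were named by Pearson's r among 12128 genes, as a description that the 2 high tumours dominate. Fbln2, an extracellular matrix gene, gave r = 0.969, with 10.16 and 11.21 in spontaneous tumours 2 and 6 and 6.32 to 6.56 in control lungs. Inhba, an activin subunit, gave r = 0.969, with 9.35 and 9.42 in the same tumours, 7.86 in cobalt tumour 5 and 6.96 to 7.2 in control lungs. Cnnm4, a magnesium transporter, gave r = 0.966, with 10.12 and 9.47 in these tumours. Dph2 (r = 0.964) and Dusp10 (r = 0.960) followed. For Igf2bp1 by its chosen probe set, the closest genes were Isl2 (r = 0.924), Tnks1bp1 (0.874) and Tmem116 (0.864). That probe set correlated at only r = 0.001 to 0.183 with the other Igf2bp1 probe sets. For Igf2bp3 the closest genes were Tab1 (0.916), Tmem116 (0.901) and Lsm11 (0.847), and for Lin28b Kdf1 (0.848), Dyrk3 (0.843) and Atat1 (0.836). Lin28b was among the dimmest genes and ranged over only 0.19 on the log2 scale. With so many genes searched over 12 tumours, r values of this size can arise by chance, which was not tested.

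The 2 tumours with high Hmga2 also differed in alveolar genes. Nkx2-1 read 7.20 in spontaneous tumour 2 and 7.15 in spontaneous tumour 6, the lowest 2 of the 12 tumours, and 7.36 to 7.86 in control lungs. The mean of the alveolar type 2 markers in these tumours was 0.36 and 0.53 below the control mean on the log2 scale, whereas the other 10 tumours were 0.56 to 1.00 above it. The part of these markers in the Hmga2 result was not tested. Among the other 10 tumours Hmga2 gave r = -0.25 with Nkx2-1 (permutation p = 0.486), r = -0.44 with the alveolar type 2 markers (permutation p = 0.194) and r = -0.06 with proliferation markers (permutation p = 0.872). After adjustment over 3 relations these were 0.729, 0.582 and 0.872, and rho for the type 2 markers was -0.61 (permutation p = 0.0665, adjusted 0.2).

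Proliferation markers, as a mean, were 1.84 and 2.51 above the control mean in spontaneous tumours 2 and 6. Across all tumours their mean lay between 7.03 and 8.67 in spontaneous tumours (median 7.97) and between 5.52 and 7.91 in cobalt tumours, against 5.95 to 6.39 in control lungs. Spontaneous tumour 2 was thus near the median of its group, and spontaneous tumour 6, at 8.67, was the highest of all tumours. The mean of 10 fibroblast and smooth muscle markers was 1.12 and 1.08 lower in spontaneous tumours 2 and 6 than the control mean, but its members went both ways. The collagen gene Col1a1 read 11.42 and 11.20 in these tumours and 8.99 to 9.87 in control lungs, Col3a1 read 11.74 and 12.25 there and 10.08 to 11.27 in control lungs, and Col1a2 read 12.08 and 11.98 there and 11.05 to 11.60 in control lungs. Tcf21, a lung fibroblast factor, read 7.32 and 7.50 in these tumours and 11.97 to 12.37 in control lungs. Over all spontaneous tumours 2 of the 10 markers rose, Col1a1 and Col3a1, and 6 fell. The part of stromal cells in the Hmga2 result was not tested.

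**Figure D5:**
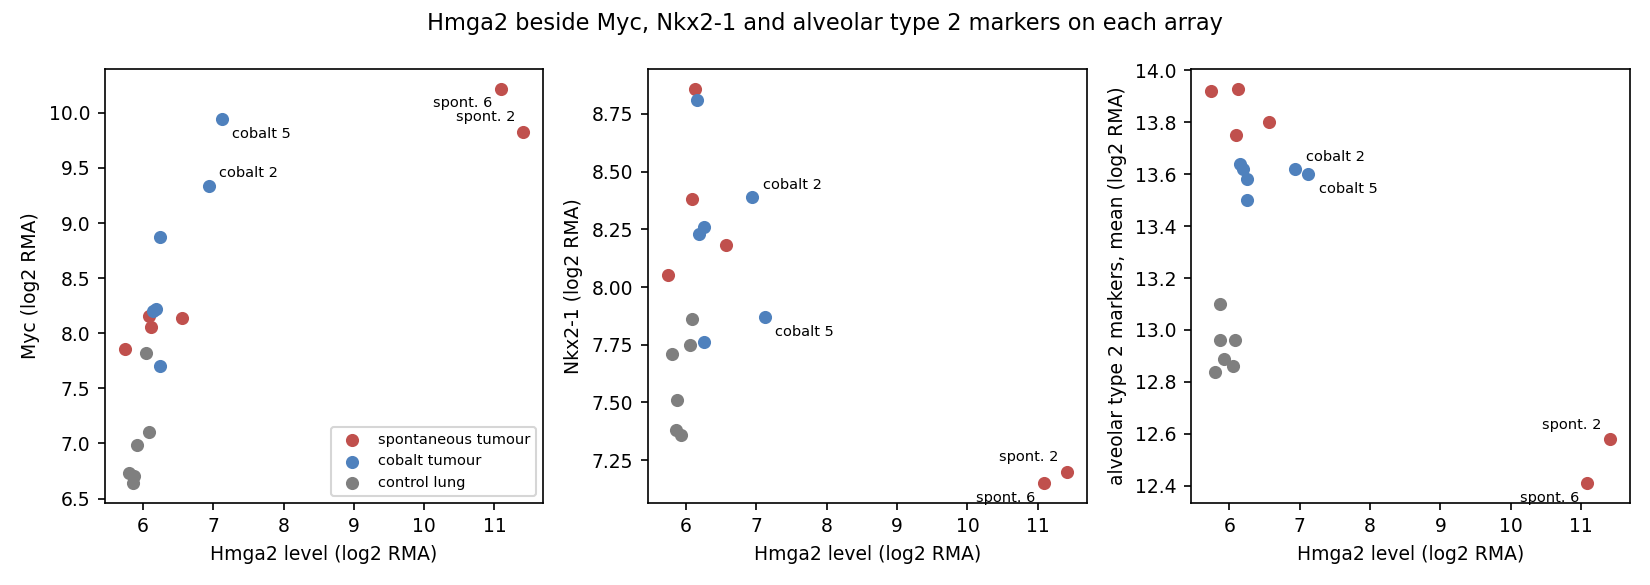
Level of Hmga2 (horizontal axis, log2 RMA) against the level of Myc, of Nkx2-1 and the mean of 9 alveolar type 2 markers (vertical axes, log2 RMA), 1 point for each of the 18 arrays. Labels mark spontaneous tumours 2 and 6 and cobalt tumours 2 and 5, the 4 tumours highest in both Hmga2 and Myc; spontaneous tumours 2 and 6 are lowest in Nkx2-1.

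Myc, a let-7 target whose RNA the IGF2BP proteins bind, was higher in both tumour groups than in control lungs. Its level was 7.86, 9.83, 8.06, 8.14, 8.16 and 10.22 in spontaneous tumours 1 to 6, 8.22, 9.34, 8.2, 8.87, 9.94 and 7.7 in cobalt tumours, and 6.99, 6.73, 7.82, 7.1, 6.7 and 6.64 in control lungs. Spontaneous tumours were 3.28-fold and cobalt tumours 3.27-fold higher (limma, adjusted p = 0.0052 and 0.00512). The 4 tumours highest in Hmga2 were the 4 highest in Myc, a match chosen after the values were seen.

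Genes tied to the members were counted over 8 lists, and some genes, Myc and Mycn among them, stand on several lists. Medians over each list are set beside the median of all genes, -0.03 in both comparisons with control lungs. Of all genes 16.4% rose and 18.2% fell in spontaneous tumours, and 14.7% rose and 19.3% fell in cobalt tumours, against control lungs. Cell type markers moved with the groups too: the mean of endothelial markers lay between 7.99 and 9.34 in spontaneous tumours, between 7.88 and 10.44 in cobalt tumours and between 11.29 and 11.68 in control lungs. Alveolar type 1 markers lay between 9.96 and 11.22 in spontaneous tumours, between 9.73 and 12.13 in cobalt tumours and between 12.03 and 12.38 in control lungs. Cobalt tumour 6 gave the highest cobalt value of both endothelial and type 1 markers. The next highest were 9.03 and 10.85, both in cobalt tumour 2. Macrophage markers lay between 9.68 and 11.09 in spontaneous tumours, between 9.04 and 10.11 in cobalt tumours and between 8.8 and 9.62 in control lungs. The part of these cells in the counts of each list was not tested.

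Of 17 genes of the let-7 and LIN28 machinery, 0 rose and 2 fell in spontaneous tumours, with a median of -0.08. Ago1, an effector of microRNA silencing, fell 1.65-fold, and Dicer1, which cuts precursors, fell 1.31-fold (limma, adjusted p = 5.57e-05 and 0.0216). In cobalt tumours 1 rose and 1 fell: Dgcr8, part of the microprocessor, was 1.21-fold higher and Ago1 was 1.66-fold lower (limma, adjusted p = 0.00703 and 4.96e-05). Lin28a averaged 4.41 ± 0.10 in spontaneous tumours, 4.46 ± 0.06 in cobalt tumours and 4.66 ± 0.30 in control lungs (SD, n = 6 each) and did not pass.

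Of 38 let-7 targets measured, 11 rose and 11 fell in spontaneous tumours, and 9 rose and 8 fell in cobalt tumours, with medians of 0.13 and 0.02. The MAP kinase phosphatase Dusp4 was 8.18-fold and 7.09-fold higher, and Mycn 4.54-fold and 7.63-fold higher, in spontaneous and in cobalt tumours. Rrm2, a subunit of ribonucleotide reductase, was 5.12-fold higher in spontaneous tumours, and its 2.05-fold difference in cobalt tumours did not pass (limma, adjusted p = 0.21). In spontaneous and in cobalt tumours, Dusp1 was 3.41-fold and 2.69-fold lower and Fas, a death receptor, 3.02-fold and 2.11-fold lower. Ccnd2, a cyclin, was 2.03-fold and 3.56-fold lower, and the IGF receptor Igf1r 2.20-fold and 2.23-fold lower.

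Of 16 RNAs bound by IGF2BP proteins, 6 rose and 5 fell in spontaneous tumours and 5 rose and 4 fell in cobalt tumours. Igf2, the fetal growth factor whose message names the family, was 2.09-fold lower in spontaneous and 1.73-fold lower in cobalt tumours (limma, adjusted p = 7.49e-06 and 0.00012). Klf4 was 3.38-fold and 2.25-fold lower, and Ccnd1 2.00-fold and 1.61-fold higher, in spontaneous and in cobalt tumours. Of 19 genes of the m6A pathway, which marks messages the IGF2BP proteins can read, 5 rose and 2 fell in spontaneous tumours and 4 rose and 2 fell in cobalt tumours. The reader Ythdf3 was 1.46-fold and 1.60-fold higher, and the writer component Virma 1.31-fold and 1.51-fold lower, in spontaneous and in cobalt tumours.

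Of 7 HMG chromatin genes measured, Hmga2 included, 2 rose in spontaneous tumours and 1 in cobalt tumours. Hmgb3 was 4.23-fold and 5.43-fold higher (limma, adjusted p = 3.17e-06 and 7.47e-07), and Hmgb2 1.67-fold higher in spontaneous tumours (adjusted p = 0.0264), with 1.15-fold in cobalt tumours (limma, adjusted p = 0.587). Hmga1 was not analysed here.

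Of 27 other fetal and oncofetal genes, 8 rose and 8 fell in spontaneous tumours and 7 rose and 6 fell in cobalt tumours, with medians of -0.02 and 0.06. Afp, alpha-fetoprotein, was 10.6-fold and 29.2-fold higher, and the imprinted pair Dlk1 and Meg3 16.2-fold and 12.3-fold higher in spontaneous tumours and 23.5-fold and 12.1-fold higher in cobalt tumours. Sox11 was 5.34-fold and 6.16-fold lower, and Sox2, an airway factor, 8.68-fold lower in cobalt tumours, while its 1.70-fold lower level in spontaneous tumours did not pass (limma, adjusted p = 0.484). Genes of the embryonic distal lung tip shifted further from the all-gene median, with medians of 0.66 and 1.15 over 15 genes. Of them 6 rose and 2 fell in spontaneous tumours and 10 rose and 1 fell in cobalt tumours. Id2 was 6.07-fold and 6.48-fold higher and Sox9 4.99-fold and 4.93-fold higher.

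Of 20 factors linked to Hmga2 in mouse lung adenocarcinoma, 2 rose and 6 fell in spontaneous tumours and 5 rose and 7 fell in cobalt tumours. Cebpa, a factor of alveolar differentiation, was 2.92-fold and 4.06-fold higher, and Hnf4a, a gut and liver factor, 5.71-fold higher in cobalt tumours (limma, adjusted p = 0.0028), with 2.14-fold in spontaneous tumours (adjusted p = 0.162). Hopx was 5.04-fold and 4.42-fold lower and Zeb1 4.53-fold and 5.29-fold lower. Nkx2-1 averaged 7.97 ± 0.67 in spontaneous tumours, 8.22 ± 0.38 in cobalt tumours and 7.60 ± 0.21 in control lungs (SD, n = 6 each) and did not pass (limma, adjusted p = 0.268 and 0.0657). Over the 140 genes of the lists other than the members, limma called 0 between cobalt and spontaneous tumours. The exact permutation test called 0 of them, and also 0 of all genes. In limma 31 of the 140 had an unadjusted p under 0.05, a larger share than the 11.6% of all genes. That larger share was not tested, and the lists were chosen with earlier results of these data known.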

How the data were processed

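Per the submitters' processing notes, the array signals were summarised with RMA, and the authors deposited 1 log2 value per probe set and array. Any background correction, quantile scaling or software version beyond that name is not given in the sources used here. In the table were 45101 probe sets, 64 of them controls. Gene names came from the platform annotation of GEO: 34945 probe sets had 1 symbol, 932 had several and 9160 had none, and 34741 symbols matched RefSeq by Entrez ID. RMA usually scales arrays to 1 distribution, a step the sources do not state for these arrays. Values were therefore read as relative, and levels of different probe sets are not comparable.

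The 18193 genes were fitted with limma 3.58.1 in R 4.3.3 (lmFit and eBayes, group only, all 18 arrays, two-sided, Benjamini-Hochberg over all genes, threshold 0.05). Correlations and figures were made with scipy 1.17.1, pandas 2.3.3 and matplotlib 3.10.9, with 100000 permutations for correlations. Members and lists were chosen with earlier results of these data known. Of each pathway list, genes were named from the up to 3 in each direction and comparison with the largest difference past the threshold. Not all of these are printed. Lin28a, Nkx2-1, Myc and Igf2 were always named. The genes most like a member were those with the highest r over the 12 tumours leaving out the 6064 dimmest genes (mean of at most 6.12). The fit and the correlations were tested on simulated data. The alternatives were cyclic loess, no dim genes, the mean of all probe sets or each on its own, trend and robust options, array weights, 12 arrays only, a replicate block, Y-linked RNA as a covariate, each array left out and an exact permutation test. Same-numbered arrays of different groups correlated at -0.338 to 0.195 in their deviations, with 2 of 18 pairs over 0.1, so the numbers do not pair arrays. Precision is limited by having 6 arrays a group.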

Additional observations from a re-analysis of the deposited data

Results flagged for a closer look

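In 25 of 222 sets of 6 arrays tested, 45 of them for member probe sets and 177 for named genes, 1 array lay far from the other 5. Chance alone marks about 1 in 20 independent groups. These sets are not independent: several probe sets stand for 1 gene, and some genes were named for their likeness to a member. The count is thus no test against chance. Among the members these were spontaneous tumour 2 in Igf2bp1 by 3 probe sets (6.79 by 1418761_at, 6.82 by 1449210_at and 5.78 by 1455223_at), and control lung 2 by the first of these (6.26). Cobalt tumour 1 stood apart by the chosen Igf2bp1 probe set (6.89), spontaneous tumour 4 by Igf2bp3 probe set 1433732_x_at (4.26) and spontaneous tumour 1 by Igf2bp3 probe set 1450687_at (3.53). Hmga2 is not among them because 2 of its 6 spontaneous tumours were high together.

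Among the named genes, cobalt tumour 6, the tumour that correlated most closely with control lungs, lay apart in Dusp4 (8.91), Sox2 (9.34), Hopx (13.57), Zeb1 (9.83) and Snai2 (9.19). Cobalt tumour 5 lay apart in Inhba (7.86), and cobalt tumour 1 in Isl2 (6.78) and Lsm11 (7.64). Of the spontaneous tumours, tumour 2 lay apart in Id2 (11.15), tumour 3 in Dgcr8 (8.4), tumour 5 in Dusp1 (10.22) and Hmgb3 (9.7), and tumour 6 in Rrm2 (11.12). Of the control lungs, lung 1 lay apart in Hmgb2 (10.23), Ccnd3 (11.13) and Cnnm4 (8.42), lung 2 in Ythdf3 (8.7) and lung 5 in Ccnd2 (10.76).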

How the results depend on the processing

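The high Hmga2 level of spontaneous tumours 2 and 6 was seen by all 4 probe sets. Its group difference in spontaneous tumours against control lungs ranged from 1.19 to 2.33 with 1 array left out, and was 1.03 (limma, adjusted p = 0.16) with array weights. With Y-linked RNA as a covariate it was 2.51 (limma, adjusted p = 0.0806). It was 2.9 (limma, adjusted p = 0.0234) on arrays with Xist above 10, where tumours 4 and 6 were the only spontaneous ones. For cobalt tumours against control lungs it ranged from 0.43 to 0.62, and the difference of 0.55 passed with only 12 arrays (limma, adjusted p = 0.0214), by exact permutation (adjusted p = 0.0115) and without spontaneous tumours 2 and 6 (adjusted p = 0.0196). There it was 0.87 with Y-linked RNA as a covariate (limma, adjusted p = 0.499). Between cobalt and spontaneous tumours it ranged from -1.77 to -0.64, was -0.41 with array weights (limma, adjusted p = 0.821), and was 0.36 without spontaneous tumours 2 and 6. With Y-linked RNA as a covariate that difference was -1.64 (limma, adjusted p = 0.439). The settings that select arrays by Xist or leave out 2 arrays were chosen after seeing the data.

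Differences of the other members were small and many changed sign under a setting, none of those passing, while Igf2bp3 by probe set 1422611_s_at in cobalt tumours (-0.29) passed in the fit over probe sets. Against control lungs, Igf2bp1 in spontaneous tumours was 0.12 with the mean of all probe sets and 0.1, 0.27 and 0.24 by single probe sets, and Igf2bp3 0.08 and 0.04 by single ones (-0.07 to 0.01 with 1 array left out). Lin28b there was 0.02 under cyclic loess and 0 on arrays with Xist above 10 (-0.03 to 0 with 1 array left out). In cobalt tumours Igf2bp3 was 0.16, 0 and 0.07 and Igf2bp1 0.01 and 0.03 by single probe sets (-0.05 to 0.02 and -0.12 to 0.01 with 1 array left out). Between cobalt and spontaneous tumours, Igf2bp1 was -0.14 with the mean of probe sets and -0.19, -0.26 and -0.21 by single ones (-0.01 to 0.13 with 1 array left out). Igf2bp3 was 0 with the mean and -0.14, -0.04 and 0 by single ones (-0.03 to 0.06).

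The number of all genes past the threshold was 6295 for spontaneous and 6183 for cobalt tumours against control lungs. It was 11582 and 11570 when every probe set counted, and 5590 to 6517 and 5573 to 6763 with 1 array left out. With Y-linked RNA as a covariate the number was lower, at 4642 and 5581. On the arrays with Xist above 10, which are fewer, it was 4305 and 5050, and with array weights it was 7306 and 7667. Between cobalt and spontaneous tumours it was 15, and 1 to 82 with 1 array left out. It was 26 without the dimmest 6064 genes, 24 with array weights, 1 with only 12 arrays, 29 with Y-linked RNA, 54 without control lung 1 and cobalt tumour 6, 65 without spontaneous tumours 2 and 6, and 23 over probe sets. It was 0 by the exact permutation test (1633 genes at an unadjusted p under 0.05) and 0 in limma on arrays with Xist above 10 (1226 unadjusted). The tumours kept in that last setting were cobalt tumours 2, 3, 5 and 6 and spontaneous tumours 4 and 6. With the replicate block, although the numbers do not pair arrays, 1 gene passed between cobalt and spontaneous tumours. Under that block the Hmga2 difference was 1.91 for spontaneous tumours against control lungs (limma, adjusted p = 0.0935). Between cobalt and spontaneous tumours the Hmga2 difference was -1.35 (limma, adjusted p = 0.597).

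The correlation of Igf2bp1 with Igf2bp3 was 0.7 to 0.81 with 1 tumour left out, 0.34 with the mean of probe sets and 0.68 under cyclic loess. The number of pairs past the threshold was 1, 0 under both of those settings and 0 to 1 with 1 tumour left out. Under cyclic loess Igf2bp1 and Lin28b gave -0.17 and Igf2bp3 and Lin28b -0.28. With 1 tumour left out, the ranges were -0.31 to 0.01 for Hmga2 and Igf2bp1, -0.12 to 0.31 for Hmga2 and Lin28b, -0.03 to 0.33 for Igf2bp1 and Lin28b, -0.07 to 0.57 for Igf2bp3 and Lin28b, -0.44 to 0.02 for Hmga2 and Nkx2-1 and -0.13 to 0.04 for Hmga2 and proliferation markers. Causes of these shifts were not tested. Lin28b had no value without the dimmest genes, since it is one of them.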
